A study of Caenorhabditis elegans with 6 samples.

Results

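The elo genes of Caenorhabditis elegans, a nematode, encode its fatty acid elongases. The family was taken by gene name, and all 9 members, elo-1 to elo-9, were found among the 16262 genes of the deposited table of normalized counts. RNA had been sequenced from whole young adult worms in 6 libraries. In 3 of them GFP was fused to the RNA-binding protein LARP-1, a La-related protein, at its own locus (allele yq636), and in 3 APEX2, a peroxidase, was fused to it in the same way (allele yq637). Worms of both groups had been grown at 20 °C on E. coli OP50. They were then held for 2 h at 25 °C in 3.3 mM Biotin-aniline. At the end, 11 µl of 100 mM H2O2 was added for 2 min. In the presence of H2O2 the peroxidase attaches biotin to molecules close to it, and GFP does not.

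A long-chain acyl-CoA is lengthened in the endoplasmic reticulum by a cycle of enzymes that adds carbons from malonyl-CoA. An elongase carries out the first, condensing step and sets which acyl chains are taken up. A 3-ketoacyl-CoA reductase, a 3-hydroxyacyl-CoA dehydratase and a trans-2-enoyl-CoA reductase complete the cycle and serve all elongases. In the worm, ELO-1 and ELO-2 act in making polyunsaturated fatty acids and in lengthening palmitate, and ELO-5 and ELO-6 make monomethyl branched-chain fatty acids, from which the worm builds its sphingolipids. The substrates of ELO-3, ELO-4, ELO-7, ELO-8 and ELO-9 are less well described and are not given here. Intestine and epidermis are main sites of fatty acid metabolism in the worm.

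Although the titles name an immunoprecipitation, no pull-down is described in the labelled protocols, and input RNA was not analysed here. A difference between the groups can therefore be one in recovery near LARP-1 or one in RNA level between the strains, and the data hold no value that separates them. Because whole worms were used, fewer cells of a type and less RNA per cell cannot be told apart either. The rows were taken by gene name, but the family was singled out with earlier results of this comparison in view. It is therefore treated as selected on the measured APEX2 minus GFP differences of its members. The differences and calls of the members are given as a description, with no p-value, and are no independent evidence about elongases. The lists of related genes used below were also chosen with earlier results known. Their counts and adjusted p-values are likewise a description. Recovered reads on listed genes numbered 3824041 to 6414569 per library. On the second principal component of all tested genes, APEX2 replicate 1 stood apart from the rest of its group (-28.3, against 18.4 and 17.2). Several differences for which it was the highest library of its group are also given without it.

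Between the groups, 6 of the 9 elongase transcripts were higher with APEX2, 0 were lower and 3 did not pass the threshold. Each gene's difference is the APEX2 mean less the GFP mean of log2(normalized count + 1), given with its standard error, from limma fitted to the 10534 genes with a mean normalized count of at least 10, and a gene was called at a Benjamini-Hochberg adjusted p under 0.05. All 9 members passed that filter. Of all tested genes 11.6% were called higher and 10.1% lower. Among tested genes with a mean normalized count of at least 100, 17.3% were called higher. The 5 members with such a mean, elo-1, elo-2, elo-3, elo-5 and elo-6, were all called, and of the 4 members below it elo-9 alone was, where 5.34% of tested genes were called higher. The median difference was 0.68 over the 9 members and 0.02 over all tested genes. Without GFP replicate 3 the members called higher numbered 3, elo-1, elo-2 and elo-6, and without GFP replicate 1, 2 or 3 the genes called higher among all tested fell from 1219 to 743, 783 or 612. No verdict on the family is read from these shares.

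**Figure D1:**
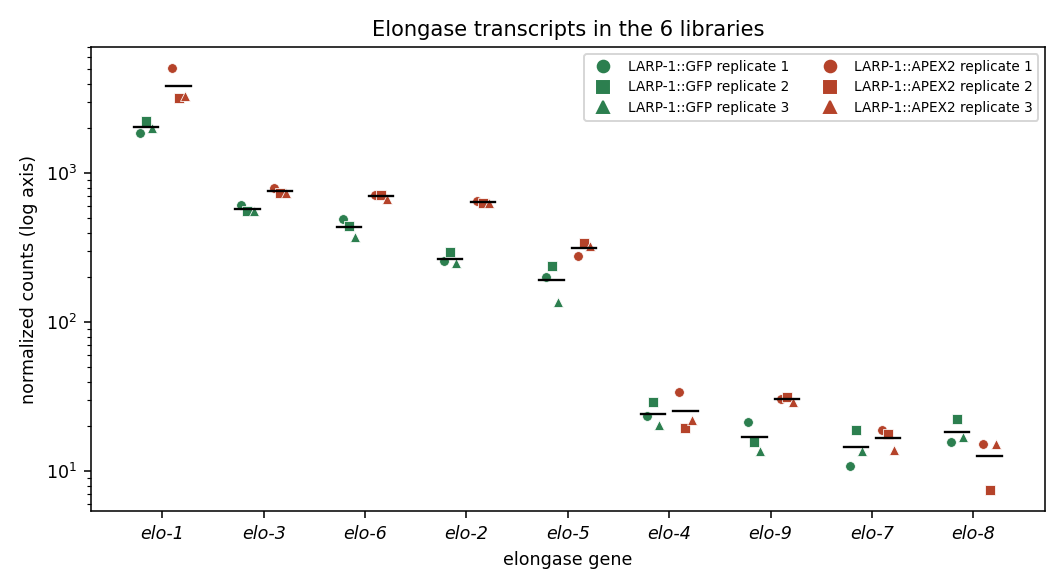
Normalized counts of the 9 elongase genes (log axis) in the 6 libraries, ordered by mean, with 1 point per library and a bar at each group's mean. All APEX2 points lie above all GFP points for elo-1, elo-2, elo-3, elo-5, elo-6 and elo-9, those of elo-8 lie below, and those of elo-4 and elo-7 overlap.

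The groups were fully separated, with every APEX2 library above every GFP library, for 6 members, the called ones. For elo-8 every APEX2 library lay below every GFP library, and for elo-4 and elo-7 the groups overlapped. Among all tested genes, 19.9% had all APEX2 libraries above and 17.5% all below. Summed over the 9 genes, the family took 809, 851 and 777 RPM (reads in 1000000 reads on listed genes) in GFP replicates 1 to 3 and 1585, 1259 and 1299 in APEX2 replicates 1 to 3. The log2 ratio of the group means of that sum was 0.77, and 0.66 without APEX2 replicate 1.

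The polyunsaturated fatty acid elongase gene elo-1 (WBGene00001239, chromosome IV, 9526366 to 9528336, plus strand, WBcel235) was the most abundant member. Its normalized counts were 1877, 2229 and 2004 in the GFP libraries and 5057, 3225 and 3317 in the APEX2 libraries. The lowest APEX2 library lay 1.45 times above the highest GFP library, and APEX2 replicate 1 lay well above the other APEX2 libraries. The difference was 0.90 ± 0.15, and 0.69 without APEX2 replicate 1. The spread between the APEX2 libraries, a coefficient of variation of 26.7%, was far larger than the 1.59% that counting alone would give.

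The palmitate elongase gene elo-2 (WBGene00001240, chromosome IV, 17466062 to 17467408, minus strand) differed most of the 9. Its normalized counts were 256, 298 and 249 with GFP and 648, 633 and 634 with APEX2. The lowest APEX2 library was 2.12 times the highest GFP library, and the APEX2 libraries were nearly equal to each other, with a coefficient of variation of 1.33%, under the 3.83% expected from counting. The difference was 1.25 ± 0.11, and 60 tested genes had a larger positive one. Without APEX2 replicate 1, the library in which elo-1 was highest, the difference of elo-2 was 1.24.

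Both branched-chain elongase genes were higher with APEX2, and they lie near each other on the minus strand of chromosome IV. For elo-5 (WBGene00001243, 5374616 to 5377117) the normalized counts were 202, 239.7 and 137 with GFP and 277, 339.7 and 323 with APEX2. GFP replicate 3 was low and APEX2 replicate 1, in contrast to elo-1, was the lowest of its group. The difference was 0.73 ± 0.18. Without GFP replicate 3 it was 0.50 and no longer passed.

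For elo-6 (WBGene00001244, 5386629 to 5388559) the normalized counts were 497, 444 and 376 with GFP and 715, 710.1 and 672 with APEX2. GFP replicate 3 was again the lowest library, and the APEX2 libraries were close together. The difference was 0.68 ± 0.12. The ratio of elo-6 to elo-5 normalized counts was 2.35 ± 0.46 with GFP and 2.25 ± 0.29 with APEX2 (SD, n = 3), so the group means of the ratio differed by less than the spread between replicates.

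Of the members whose substrates are not given here, elo-3 (WBGene00001241, chromosome IV, 7237718 to 7240488, plus strand) was abundant and differed least among the called genes. Its normalized counts were 609, 560.1 and 562 with GFP and 801, 737 and 739 with APEX2. The groups were separated by a narrow gap, the lowest APEX2 library being 1.21 times the highest GFP library. The difference was 0.40 ± 0.10. The call was lost without GFP replicate 2, where the difference was 0.37, or GFP replicate 3, where it was 0.38.

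The remaining members were rare, with 8 to 42 reads in each library. For elo-9 (WBGene00001247, chromosome II, 14959526 to 14964108, minus strand) the normalized counts were 21.6, 15.7 and 13.7 with GFP and 30.6, 31.7 and 29.1 with APEX2. The groups did not overlap, and the difference was 0.83 ± 0.28, just past the threshold. The call was lost when any 1 of the 6 libraries was left out, where the difference lay between 0.70 and 1.01, and with edgeR (0.80) or DESeq2 (0.81) on the recovered reads.

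For elo-4 (WBGene00001242, chromosome III, 9332269 to 9334274, minus strand) the normalized counts were 23.6, 29.1 and 20.6 with GFP and 34.2, 19.6 and 22.1 with APEX2. APEX2 replicate 1 alone lay above the GFP libraries, and the difference of 0.02 ± 0.29 did not pass. For elo-7 (WBGene00001245, chromosome IV, 9529947 to 9531400, plus strand) they were 10.8, 19.04 and 13.7 with GFP and 18.9, 17.7 and 13.8 with APEX2. The difference of 0.22 ± 0.34 did not pass.

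For elo-8 (WBGene00001246, chromosome III, 11230377 to 11232069, minus strand) the normalized counts were 15.7, 22.4 and 17.1 with GFP and 15.3, 7.47 and 15.2 with APEX2. APEX2 replicate 2 was low, resting on 8 reads, and the difference of -0.55 ± 0.36 did not pass. With standard errors of 0.29 to 0.36, differences as large as that of elo-3 were not detectable for elo-4, elo-7 and elo-8 at this depth.

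Per length, the family fell into an abundant and a rare set. Levels between genes were compared as RPKM, the RPM divided by the kilobases of annotated exon, with an exonic length of 922 to 1565 bases. In the GFP libraries elo-1 was at 435 ± 28.0, followed by elo-6 at 107 ± 15.4, elo-3 at 83.6 ± 5.46, elo-2 at 58.4 ± 4.40 and elo-5 at 47.3 ± 11.99 (SD, n = 3). The others lay between 2.87 and 5.86 on this scale. With GFP, elo-2 and elo-5 overlapped in this order, as did each neighbouring pair below elo-5. The level of elo-5 was 8.07 times that of elo-4, the next gene, and its lowest library was above the highest library of elo-4.

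With APEX2 the order per kilobase was elo-1 at 789 ± 179, elo-6 at 164 ± 3.92, elo-2 at 134 ± 3.73, elo-3 at 106 ± 1.70 and elo-5 at 74.2 ± 10.1 (SD, n = 3), with no overlap between neighbours. The genes elo-2 and elo-3 had thus changed places. The ratio of their levels per kilobase was 0.702 ± 0.0887 with GFP and 1.27 ± 0.0430 with APEX2 (SD, n = 3). That change restates the larger difference of elo-2 and is no separate result. The order had been planned to be judged over all 6 libraries. There elo-6 and elo-2 overlapped, as did elo-2 and elo-3, and elo-3 and elo-5. The gene elo-1 alone made up 58.1% ± 3.09 of the summed level per kilobase of the family with GFP and 60.9% ± 5.65 with APEX2, a difference within the spread between replicates. Over the 6 libraries 1.62% of the 16181 listed genes with a known length had a higher level per kilobase than elo-1, and 58.0% had a higher one than elo-7.

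**Figure D2:**
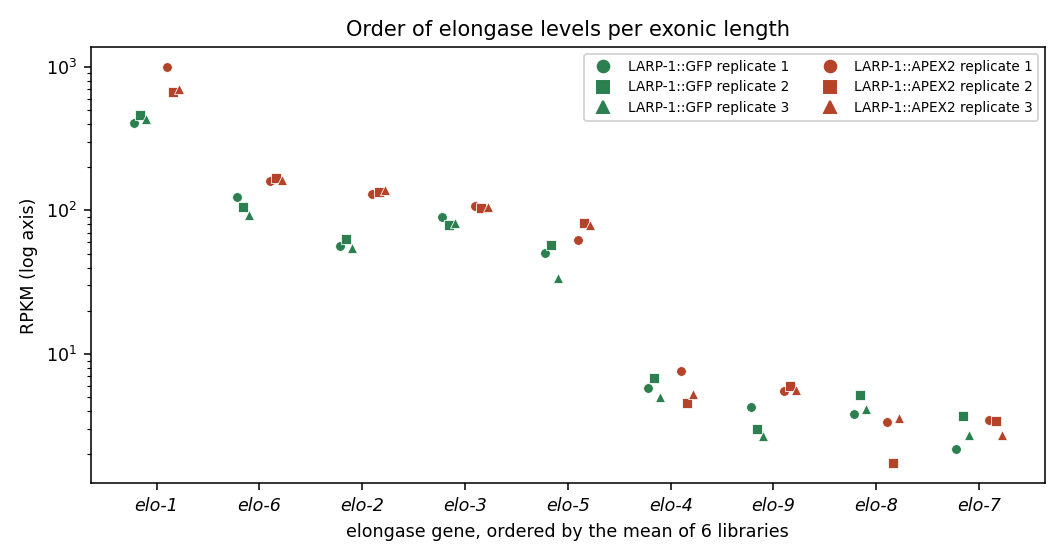
RPKM, the RPM per kilobase of annotated exon (log axis), for the 9 elongase genes, with 1 point per library, ordered by the mean of the 6 libraries. A 10.4-fold gap divides elo-5 at a mean of 60.8 from elo-4 at 5.84, and elo-2 lies below elo-3 with GFP and above it with APEX2.

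Of the 9 genes 6 lie on chromosome IV, 2 on chromosome III and 1 on chromosome II. On chromosome IV elo-1 and elo-7 stand in a row on the plus strand with 1610 bases between them, yet elo-1 had 174, 117 and 146 times the normalized counts of elo-7 in the GFP libraries and 268, 182 and 239.7 times in the APEX2 libraries. Between elo-5 and elo-6 lie 9511 bases, and the difference of F41H10.1, a gene on the plus strand in that interval, was 0.08 (limma adjusted p = 0.82). Within 15000 bases of elo-1, elo-2, elo-5 and elo-6, 22 other tested genes were annotated, of which 0 were called higher and 1 lower, with differences from -0.89 to 0.58. Within that distance of any member, 3 of 40 were called higher and 7 lower, against 11.6% and 10.1% of all tested genes. The genes called higher there were D2024.5 (0.56) and cap-1 (0.58), near elo-3, and cpb-1 (0.40), near elo-4.

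How the authors treated strand is not given in the sources used here, so reads in shared exonic bases cannot be assigned with certainty. Annotated exons of elo-1, elo-2, elo-6, elo-8 and elo-9 overlap those of no other gene. Those of elo-5 share 162 bases, 17.6% of their length, with F41H10.3 on the other strand, whose difference was 0.09 (limma adjusted p = 0.70). Those of elo-3 share 44 bases with gstk-2, which was lower with APEX2 (-0.87, limma adjusted p = 0.042), the reverse of elo-3. Exons of elo-4 share 16 bases with ufc-1 and 11.0% of their length with an ncRNA gene, and those of elo-7 share 64 with F56H11.2.

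Of the 3 partner enzymes of the elongation cycle, the genes hpo-8 and art-1 were called higher, 0 were lower and let-767 did not pass, with a median difference of 0.90. Of all tested genes 11.6% were called higher, and 17.3% of those with a mean of at least 100, which all 3 have. The gene hpo-8, which encodes a 3-hydroxyacyl-CoA dehydratase, had normalized counts of 1201, 1448 and 1291 with GFP and 2909, 2244 and 2227 with APEX2, a difference of 0.90 ± 0.12 (limma adjusted p = 0.00018). The gene art-1, which encodes a trans-2-enoyl-CoA reductase, had 482, 587 and 509 with GFP and 1098, 946 and 936 with APEX2, a difference of 0.92 ± 0.11 (limma adjusted p = 0.0001). For both, the groups were separated and APEX2 replicate 1 was the highest library, as it was for elo-1. Without that library the differences were 0.77 for hpo-8 and 0.84 for art-1.

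The 3-ketoacyl-CoA reductase gene let-767 had normalized counts of 1236, 1643 and 1286 with GFP and 2228, 1506 and 1467 with APEX2. Its groups overlapped, APEX2 replicate 1 alone lying above all GFP libraries, and the difference of 0.30 ± 0.15 did not pass (limma adjusted p = 0.18). Without APEX2 replicate 1 it was 0.11.

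**Figure D3:**
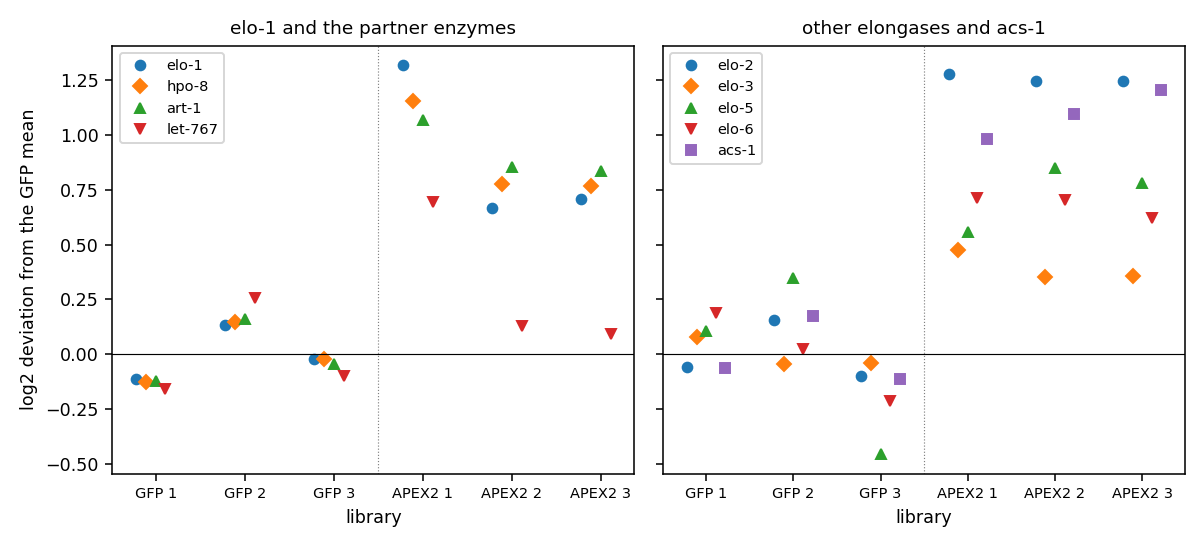
Deviation of log2(normalized count + 1) from the mean of the GFP libraries, by library, for elo-1 with the 3 partner enzymes (left) and for the other abundant elongases with acs-1 (right), with 1 point per gene and library. APEX2 replicate 1 is the highest point for elo-1 (1.31), hpo-8 (1.15), art-1 (1.07) and let-767 (0.69), whereas elo-5 and acs-1 are lowest there among the APEX2 libraries, at 0.56 and 0.98.

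The enzymes that make the starting chains were close to even between the groups. The difference was 0.00 ± 0.12 for pod-2, which encodes acetyl-CoA carboxylase, the source of malonyl-CoA, and 0.05 ± 0.11 for fasn-1, which encodes fatty acid synthase. Neither passed (limma adjusted p = 0.99 and 0.78). Of these 2 genes 0 were called in either direction.

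Desaturase genes moved in both directions. Of 7, which act in the same routes as elo-1 and elo-2, 2 were called higher, 2 lower and 3 did not pass, with a median difference of -0.13, where 11.6% of all tested genes were called higher and 10.1% lower. The stearoyl-CoA desaturase gene fat-7 had 174, 146 and 158 normalized counts with GFP and 296, 330.3 and 320.3 with APEX2, and it rose by 0.99 ± 0.13 (limma adjusted p = 0.00018). The palmitoyl-CoA desaturase gene fat-5 rose by 0.58 ± 0.19 (adjusted p = 0.042), a call lost without GFP replicate 1, 2 or 3 or APEX2 replicate 1 or 2 (adjusted p from 0.065 to 0.18). The desaturase genes of the polyunsaturated route, in which ELO-1 acts, did not move one way. The genes fat-2 and fat-3 were lower, with differences of -0.46 ± 0.10 and -0.46 ± 0.11 (adjusted p = 0.0036 and 0.0076). The call of fat-3 was lost without GFP replicate 3 (adjusted p = 0.058). For fat-1, of the same route, normalized counts were 2398, 2648 and 2309 with GFP and 3248, 2848 and 2793 with APEX2. All its APEX2 libraries lay above the GFP libraries, and the difference of 0.27 ± 0.10 did not pass (adjusted p = 0.068). Without APEX2 replicate 1, fat-4 (-0.40, adjusted p = 0.0078) and fat-6 (-0.33, adjusted p = 0.012) were called lower too, having stood at -0.28 and -0.13 with it.

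Of 6 genes listed for the branched-chain route of ELO-5 and ELO-6, 5 were called higher, 0 lower and 1 did not pass. Their median difference was 0.52. Over all tested genes the share called higher was 11.6%, and 17.3% at a mean of at least 100. The acyl-CoA synthetase gene acs-1, known to act with the branched-chain fatty acids, had normalized counts of 282, 333 and 272 with GFP and 581, 629 and 679 with APEX2. Its groups were far apart, and it rose by 1.09 ± 0.12 (limma adjusted p = 3.8e-05). Of the branched-chain ketoacid dehydrogenase complex, bckd-1B, dbt-1 and dld-1, whose product also serves other dehydrogenases, rose by 0.55 ± 0.10, 0.50 ± 0.10 and 0.59 ± 0.11 (adjusted p = 0.0022, 0.0032 and 0.0022), and bckd-1A, at 0.29 ± 0.10, did not pass (0.053). The aminotransferase gene bcat-1 rose by 0.32 ± 0.10 (adjusted p = 0.040), a call lost without any 1 of the 6 libraries except APEX2 replicate 3 (adjusted p from 0.051 to 0.15).

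Of the 9 genes of sphingolipid synthesis, which uses branched chains in the worm, 7 were tested, 4 were called higher, 0 lower and 3 did not pass, with a median difference of 0.38, against 11.6% of all tested genes called higher. The serine palmitoyltransferase genes sptl-2 and sptl-3 rose, by 0.93 ± 0.21 and 0.86 ± 0.15 in that order (limma, adjusted p = 0.0057 and 0.0013). The third gene of that group, sptl-1, stood at 0.07 ± 0.14 and did not pass (adjusted p = 0.78). The ceramide glucosyltransferase gene cgt-3 rose by 0.41 ± 0.10 (adjusted p = 0.0083), a call lost without the trended, robust prior of limma (adjusted p = 0.054). The ceramide synthase gene hyl-2 rose by 0.38 ± 0.12 (adjusted p = 0.042), a call lost without any 1 of the 6 libraries except APEX2 replicates 1 and 3 (adjusted p from 0.093 to 0.15). The other ceramide synthase gene tested, hyl-1, stood at 0.27 ± 0.12 and the rare cgt-2 at -0.01 ± 0.39, and neither passed (adjusted p = 0.12 and 0.99).

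Among 5 regulators of fatty acid genes, 4 were tested, 1 was called higher, 2 lower and 1, nhr-13, at -0.21 ± 0.34, did not pass (limma adjusted p = 0.71), where 11.6% of all tested genes were called higher and 10.1% lower. The nuclear receptor gene nhr-49 rose by 0.54 ± 0.12 (limma adjusted p = 0.0060), a call lost without the trended, robust prior (adjusted p = 0.064). APEX2 replicate 1 was its highest library, and its difference was as low as 0.40 when 1 library was left out. The Mediator subunit gene mdt-15, whose product works with NHR-49 and SBP-1, was lower, with normalized counts of 190.5, 223 and 216 with GFP and 90.7, 84.0 and 108 with APEX2 and a difference of -1.15 ± 0.16 (adjusted p = 0.00021). The gene sbp-1, which encodes the worm's sterol response element binding protein, was rare and lower, at -0.82 ± 0.26 (adjusted p = 0.039), a call lost without GFP replicate 1, 2 or 3 or APEX2 replicate 3 (adjusted p from 0.069 to 0.21).

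**Figure D4:**
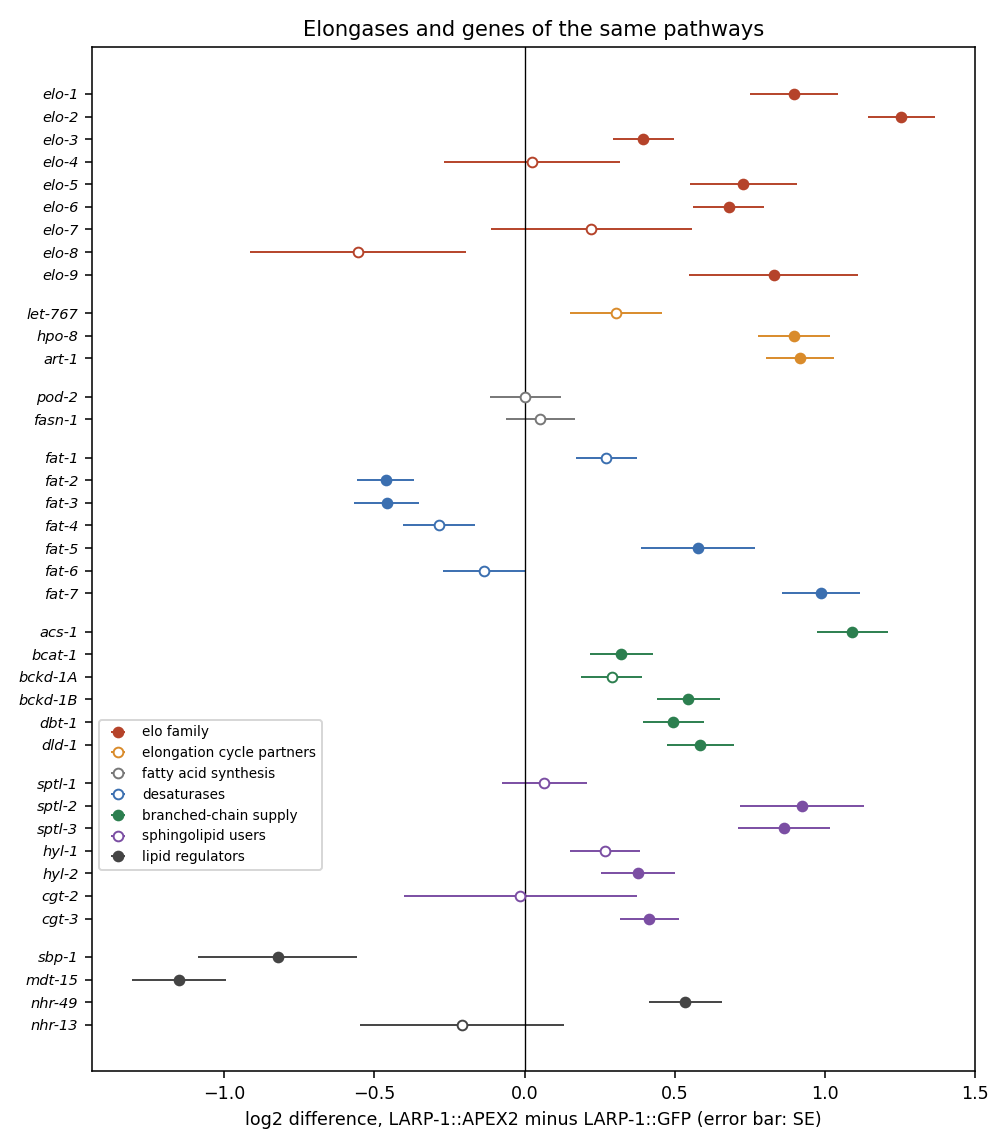
Log2 difference, APEX2 minus GFP, with its standard error for the 9 elongases and the tested genes of 6 related lists, filled where the adjusted p was under 0.05 and open otherwise. Most elongases, cycle partners, branched-chain supply and sphingolipid genes lie right of 0, and desaturases lie on both sides, from fat-2 at -0.46 to fat-7 at 0.99.

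Over the 6 lists, 32 genes, of which 29 were tested, 14 were called higher, 4 lower and 11 did not pass, with a median difference of 0.30. Of all tested genes 11.6% were called higher and 10.1% lower, with a median difference of 0.02. Among tested genes with a mean of at least 100, 17.3% were called higher. Because the lists were chosen with earlier results known, the pooled count is no independent evidence about these pathways. Several of these routes are at work in intestine and epidermis, so markers of the worm's tissues were read beside them. None of the markers was at 0 in every library. Of 9 intestine markers 2 were called higher, act-5 (0.98) and vit-5 (0.50), and 3 lower, asp-1 (-0.32), cpr-1 (-1.73) and vit-2 (-0.48), with a summed level of 21780 to 23780 RPM with GFP and 16780 to 20100 with APEX2. Of 8 epidermis markers, 7 of them tested, 2 were called higher, bli-1 (1.76) and dpy-13 (0.73), and 0 lower, with a summed level of 1119 to 1379 with GFP and 950.1 to 1432 with APEX2. The summed intestine level was led by asp-1, with mean normalized counts of 57360 with GFP and 46090 with APEX2. The next largest markers were vit-2, with 14660 and 10570, and vit-6, with 14480 and 12760. The difference of vit-6, -0.19, was not called. That sum therefore does not speak for the intestine markers as a set, which were called in both directions. The summed epidermis level overlapped between the groups.

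Of 6 muscle markers 2 were called higher and 2 lower, of 6 germline markers 1 and 1, of 6 neuron markers 0 and 0, and of 7 sperm markers, 3 of them tested, 0 and 0. Their summed levels lay at 4006 to 4441 and 4481 to 5039 RPM for muscle, at 2494 to 2571 and 2574 to 2716 for the germline, at 362 to 371 and 348 to 379 for neurons and at 70.6 to 77.6 and 65.3 to 75.1 for sperm, with GFP and APEX2 in turn. The germline sum was led by gld-1, not called, with mean normalized counts of 8524 with GFP and 9701 with APEX2. The muscle sum was led by unc-54 (-0.11, not called) and lev-11 (0.62, higher). The other called muscle markers were unc-15 (0.30), myo-3 (-0.53) and unc-22 (-0.73). In the germline glh-1 (0.44) and pgl-1 (-1.02) were called. These sums therefore do not speak for the muscle or germline markers as sets either. The part of tissue make-up in the elongase differences was not tested. The 3142 tested genes of the members' exonic lengths had a median difference of 0.05, with 12.5% called higher. Corrected for exonic length, the differences of elo-1, elo-2, elo-3, elo-5 and elo-6 were 0.86, 1.22, 0.34, 0.72 and 0.67.

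The pattern over the 6 libraries was also set against that of 4585 other tested genes with a mean of at least 50 and a conventional symbol, by the Euclidean distance between log2 values centred on each gene's mean. Nearest to elo-1 were nlp-77 (0.13), ctsa-3.1 (0.19) and cdt-2 (0.20), all highest in APEX2 replicate 1. Its cycle partners hpo-8 and art-1, looked up after the values had been seen, came 4th and 26th, at 0.21 and 0.34, and let-767 506th. In the same order hpo-8, art-1 and let-767 came 44th, 23rd and 1166th from elo-2, 2794th, 2776th and 1861st from elo-3, 555th, 239th and 1486th from elo-5 and 587th, 449th and 1556th from elo-6. Nearest to elo-2 were the vitellogenin gene vit-4 (0.22), the galectin gene lec-10 (0.22) and ugt-22 (0.24), a gene of the UDP-glucuronosyltransferase family. Reads of vit-4 may be shared with its near-identical copies.

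Nearest to elo-5 were dhs-14 (0.28), ife-2 (0.30) and mua-3 (0.30), and to elo-6 sec-16A.1 (0.13), cls-2 (0.15) and ncbp-1 (0.18). Nearest to elo-3 were csnk-1 (0.07), coq-6 (0.07) and col-91 (0.09). The members were not each other's nearest genes. The nearest member to elo-5 was elo-6, at 0.49, with 31 other genes closer, and that to elo-3 was also elo-6, at 0.42, with 1009 closer. With 6 libraries in 2 groups, a small distance says mainly that a gene had a difference of like size.

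**Figure D5:**
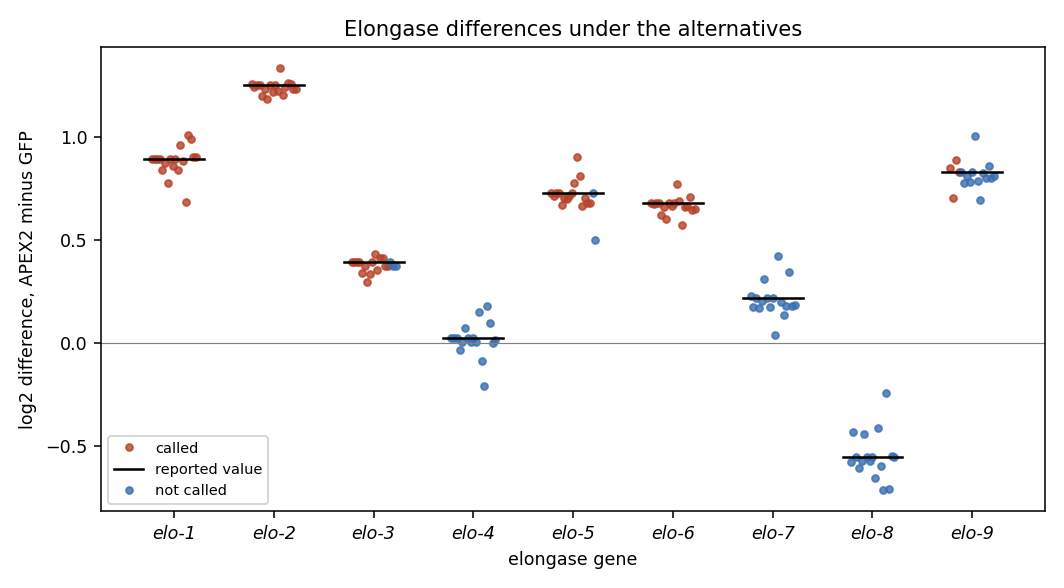
Log2 difference of each elongase, APEX2 minus GFP, as reported (bar) and under each alternative that gave a value (points, red where the gene was called and blue where it was not). The calls of elo-1, elo-2 and elo-6 held throughout, elo-3 and elo-5 lost theirs under 3 and 2 of 18, and elo-9 under 13 of 17.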

How the data were processed

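Per the submitters' processing notes, the tools were Trim Galore, Bowtie, STAR, featureCounts and DESeq2, on build ce11. Their versions and settings, strand included, are not given in the labels. The values the authors deposited are a signal: read counts of a gene divided by 1 size factor for the library. Dividing them by the library's lowest value above 0 gave whole reads for 100% (tolerance 0.001 of a read). At 3824041 to 6414569 reads per library, 1 read stands for a value of 0.69 in APEX2 replicate 3 to 1.18 in APEX2 replicate 1. Precision here means counting error alone. Exonic lengths, strands and 1-based coordinates came from Ensembl's WBcel235 annotation, which shares its assembly with ce11. A symbol matched 15691 listed genes, a sequence name 490, and nothing 81.

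The groups were compared on log2(value + 1) in limma 3.58.1 (R 4.3.3), with a trended, robust prior and no covariate. Tests were two-sided, with Benjamini-Hochberg adjustment over the 10534 genes with a mean of at least 10. The fit was also run on simulated counts with the same dispersion for every gene and no outlying library. Such counts cannot vouch for the fit on these data. Alternatives on the recovered reads were DESeq2 1.42.0 and the quasi-likelihood test of edgeR 4.0.16, which called 1127 genes higher and 1096 lower. Separate cultures are not stated for the replicates, so the p-values rest on a spread among libraries that may be only technical. No replicate pair agreed within sampling noise (chi-square per degree of freedom 2.87 to 12.0). The members, gene lists and tests were chosen with earlier results of these data known. By rule, named genes were the 9 members, called genes of 6 related lists and, for members with a mean of at least 100, the 3 genes of most like pattern. The uncalled tested genes of those lists were named after their values were seen. Genes near the members or overlapping them were named outside that rule. Tissue markers were taken from separate lists. Protein and promoter sequences were not used here.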

Additional observations from a re-analysis of the deposited data

How the results depend on the processing

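The differences of elo-1, elo-2 and elo-6 kept their sign and their call under all 18 alternatives, from 0.69 to 1.01, 1.19 to 1.33 and 0.57 to 0.77. The number of members called higher was 6, between 3 and 5 when 1 library was left out, and 4 to 6 under the other settings. The number called lower was 0 throughout. For all tested genes, 1219 higher and 1069 lower became 612 to 1308 and 550 to 1192 when 1 library was left out, and limma without trend and robust prior called 651 higher and 736 lower. Without that prior the calls of elo-3, elo-5, fat-3, fat-5, bcat-1, hyl-2, cgt-3 and nhr-49 were lost, and the pathway genes called higher fell from 14 to 9. The calls of hyl-2, bcat-1 and fat-5 were lost under 13, 12 and 11 of the 18 alternatives. TMM factors, quantile normalization and edgeR were among these for hyl-2 and bcat-1, and DESeq2 for hyl-2 and fat-5. Without GFP replicate 3 the pathway genes called lower fell from 4 to 2. The log2 ratio of the summed elongase level ranged from 0.66 to 0.83, and deposited size factors, an alternative added after the data were seen, gave 0.83.

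Libraries of the same replicate number shared no clear deviation: deviations from group means correlated at -0.16, -0.082 and 0.023 for numbers 1 to 3. These values cannot show whether such libraries were handled together. With the replicate block 984 genes were higher and 883 lower, and the calls of elo-9, fat-5, bcat-1, hyl-2 and sbp-1 were lost.

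Among the members and pathway genes, changes of sign were seen in elo-4, pod-2, fasn-1, sptl-1, cgt-2 and nhr-13, which were not called. Over the fits that left out 1 library, their differences ranged from -0.21 to 0.18, -0.10 to 0.061, -0.031 to 0.11, -0.016 to 0.17, -0.40 to 0.31 and -0.64 to 0.037. On rescaling to the same total, elo-4, pod-2 and fasn-1 were at -0.031, -0.054 and -0.0032. Quantile normalization gave -0.082 for pod-2, -0.029 for fasn-1 and 0.064 for cgt-2. The difference of pod-2 was also -0.018 with TMM factors and with DESeq2, -0.020 with edgeR and -0.058 corrected for length. The cause of these changes was not tested. Depth limits the 4 rare members, whose values rest on 8 to 42 reads per library.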
